A study of Homo sapiens with 6 samples.

Results

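The 9 genes described here encode core proteins of the tight junction. They are the claudins CLDN1, CLDN2, CLDN3, CLDN4, CLDN7 and CLDN12, the scaffold proteins TJP1 and TJP3, also called ZO-1 and ZO-3, and occludin, OCLN. They were taken by symbol from a fixed list of claudins, TJP genes and OCLN, and all 9 were found among 22091 gene IDs. All 9 also passed the filter on low counts, which kept 14176 genes.

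RNA was sequenced from 3 human hepatocellular carcinoma cell lines, HCCLM3, MHCC97H and MHCC97L, given TGF-β1 at 2.5 ng/mL for 4 h or left as controls for 4 h. The MHCC97 lines are sister lines of high (MHCC97H) and low (MHCC97L) metastatic potential from a common parental culture, and HCCLM3 was selected from MHCC97H through lung metastasis in mice. Each line has 1 library per condition, so there are 6 libraries, 3 per condition. All groups were grown in serum-containing medium, and nothing in the labels states whether the 2 libraries of a line were grown as separate cultures. A p for TGF-β1 therefore weighs the mean change against how far the 3 lines differ in their response. A p between lines rests on 2 libraries a line, 1 per condition, and uses that same spread. It does not measure how a line varies between cultures.

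Tight junctions seal the space between neighbouring epithelial cells, and in liver they separate the bile canaliculus from blood. Claudins span the membrane and set which ions pass: some close the barrier and others form pores. Occludin sits in the same strands, and the TJP scaffolds tie claudins and occludin to actin beneath the membrane. TGF-β1 signals through receptor kinases to SMAD proteins, and prolonged exposure is known to take epithelial cells through a mesenchymal transition in which SNAI, ZEB and other repressors lower junction genes.

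Among the members, CLDN4 was called higher and CLDN2 lower after TGF-β1, CLDN2 with a call that 6 of 10 alternatives did not make. Both promoters held a match to TGANTCA, the AP-1 motif, while CLDN14, a claudin outside the 9 with a larger called rise, held 0 in its 3 listed starts. Stretches of 30 bases around each match are shown as the members' only matches to this motif, from RefSeq on GRCh38.p14, all on the plus strand. They lie at chr7:73830752-73830781 and chr7:73830833-73830862 for CLDN4 and at chrX:106900102-106900131 for CLDN2. Capitals mark TGANTCA and CAGAC (the SMAD box), which is also marked as its reverse complement.
CLDN4, first match: tgTGATTCAgtGTCTGtctcccgggtgacc
CLDN4, second match: agTGACTCAgggacccggggctggggcctc
CLDN2: ccTGATTCAtctcatgccaacacaCAGACt
In the 250 bases before each RefSeq start, 5 motifs were searched on both strands: the SMAD box CAGAC, a GC-rich SMAD motif, GGCGC, the AP-1 motif TGANTCA, the E-box CANNTG and the TEAD motif CATTCC. CLDN4 held 3 matches, the ones shown, at a GC content of 58.8%. CLDN2 held 3 matches in 1 of its 2 listed starts, the third being an E-box outside the stretch, and CLDN3, the neighbour of CLDN4 on chromosome 7, held 0 at a GC content of 71.6%. TGANTCA was in no start of CLDN1, CLDN3, CLDN7, CLDN12, TJP1, TJP3 or OCLN. Of 35116 promoter windows of this length, 6.57% held TGANTCA, 38.0% CAGAC, 44.5% GGCGC, 61.8% CANNTG and 11.9% CATTCC, and the median GC content was 58.0%. A longer GENCODE transcript of CLDN4 has an exon across its window. These are matches of letters and say nothing of binding. Only the promoters of CLDN3 and CLDN4 were planned for display. Adding CLDN2 and choosing stretches by TGANTCA among the 5 motifs were both outside that plan.

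Levels are given in CPM, counts scaled to the library total after TMM normalisation, and levels of the 9 genes are compared with each other per kilobase of exon. CLDN4, a barrier claudin, was the most abundant member, at 95.7 CPM per kb on average over the 6 libraries. CLDN2, which forms a cation and water pore, followed at 17 CPM per kb and TJP1 at 12 CPM per kb. CLDN12 averaged 4.39, CLDN1 4.22, TJP3 3.04, CLDN7 1.98, CLDN3 1.4 and OCLN 0.673 CPM per kb. The means of the 3 lines overlapped between all neighbours in this order except CLDN4 over CLDN2 and TJP1 over CLDN12. CLDN4 spanned 68 to 144 CPM per kb between lines and CLDN2 2.29 to 27.6, so the order below CLDN4 changed with the line.

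**Figure D1:**
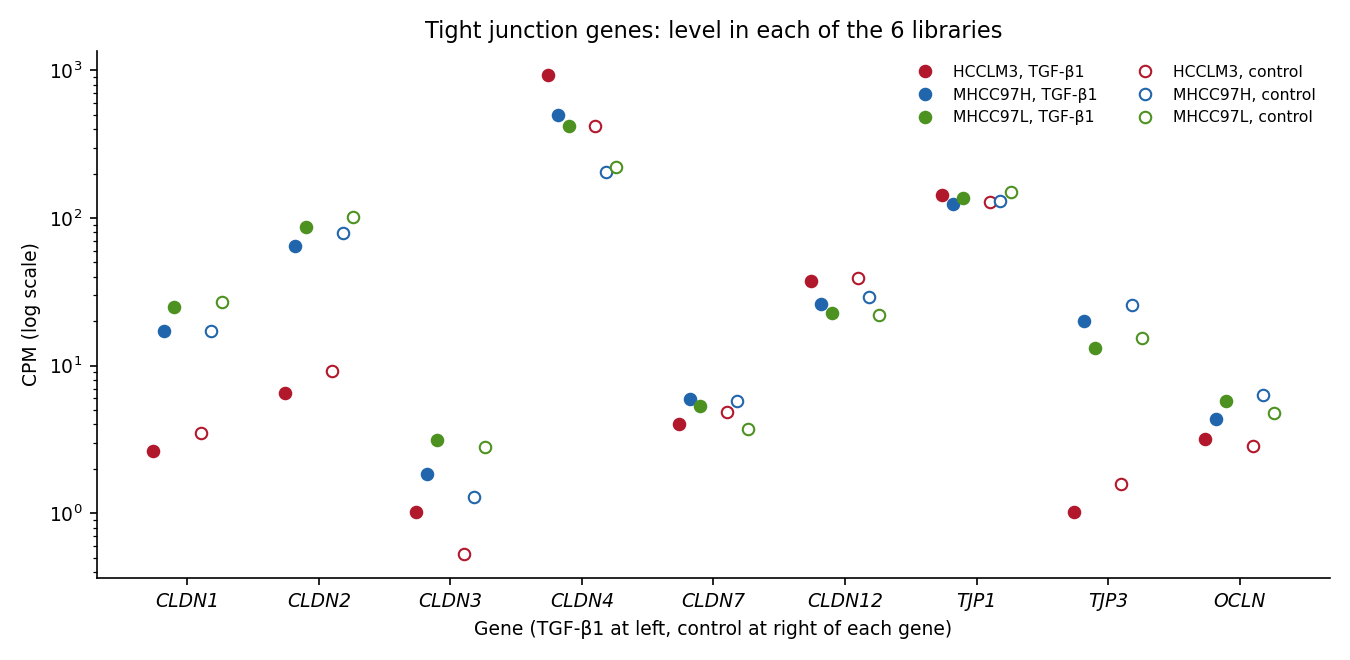
Level of each of the 9 genes (CPM, log scale) in the 6 libraries, coloured by line, with filled points for TGF-β1 and open points for control. HCCLM3 lies highest for CLDN4 in each condition, and lies far below both MHCC97 lines for CLDN1, CLDN2 and TJP3.

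The first comparison asks what 4 h of TGF-β1 did to these genes. Of the 9 members, 1 rose (CLDN4), 1 fell (CLDN2) and 7 did not pass, at an adjusted p of 0.05 by edgeR's quasi-likelihood test with line as a block and Benjamini-Hochberg adjustment over all genes. Over all 14176 genes 14.4% passed, 7.79% higher and 6.65% lower, so 2 of 9 is near the background. Of the genes that passed, 53.9% were higher with the ligand, and 37.2% when scaled to library totals alone, under which both members kept their calls and directions. The median log2 change of the members was -0.05, against -0.003 over all genes tested.

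CLDN4 (ENSG00000189143.9, chr7:73799542-73832693, plus strand, hg38) had 935, 500 and 418 CPM after TGF-β1 in HCCLM3, MHCC97H and MHCC97L, against 422, 205 and 222 CPM in their controls. Every line was higher with the ligand, while the lowest treated library, MHCC97L, lay just under the HCCLM3 control. The level averaged 618 ± 278 CPM with TGF-β1 and 283 ± 121 CPM in controls (SD, n = 3 lines each). The log2 change was 1.12 (SE 0.0807), or 2.17-fold (Benjamini-Hochberg adjusted p 0.000112, edgeR quasi-likelihood).

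No test can be made inside 1 line, so each difference there is given with a 95% interval for counting error only. CLDN4 differed by 1.15 (1.11 to 1.19) on the log2 scale in HCCLM3, 1.29 (1.24 to 1.34) in MHCC97H and 0.92 (0.87 to 0.97) in MHCC97L. Intervals as narrow as these follow from 4298 to 19306 counts per library. At a size of 1.5-fold with at least 5 CPM in either library, CLDN4 was the only member to change in any line. The share of all such genes that were this much higher was 3.5% in HCCLM3, 5.16% in MHCC97H and 3.58% in MHCC97L, and 2.23%, 3.94% and 2.17% were this much lower. CLDN3 was under 5 CPM in every line, and CLDN1, CLDN7, TJP3 and OCLN were in HCCLM3, so none of these could be called there. In HCCLM3, TJP3 at -0.60 (-1.53 to 0.21) and CLDN3 at 0.83 (-0.21 to 2.19) were past 1.5-fold but below that level. CLDN4 had counts with decimals, as arise when reads are shared between genes.

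CLDN2 (ENSG00000165376.10, chrX:106900164-106930861, plus strand) had 6.49, 64.7 and 87.4 CPM after TGF-β1 in HCCLM3, MHCC97H and MHCC97L, against 9.13, 78.6 and 101 CPM in controls. It was lower with the ligand in all 3 lines, by a margin much smaller than the gap between HCCLM3 and the others. The log2 change was -0.30 (SE 0.08), a fold of 0.812 (Benjamini-Hochberg adjusted p 0.0388, edgeR quasi-likelihood). The call did not hold with DESeq2 (adjusted p 0.0717), with limma-voom (0.0582), without the count filter (0.0501), without MHCC97L (edgeR, 0.2), without MHCC97H (edgeR, 0.116) or without line as a block (edgeR, 0.969). The within-line differences were -0.49 (-0.83 to -0.16) in HCCLM3, -0.28 (-0.38 to -0.18) in MHCC97H and -0.21 (-0.30 to -0.12) in MHCC97L. MORC4 and RIPPLY1 overlap CLDN2 on the opposite strand, and the labels do not say whether strand was recorded.

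TJP3, a scaffold close in build to TJP1, had 1.02, 20.2 and 13.1 CPM after TGF-β1, against 1.59, 25.7 and 15.3 CPM in controls of HCCLM3, MHCC97H and MHCC97L. Its log2 change of -0.33 (SE 0.112) did not pass (adjusted p 0.0863, edgeR quasi-likelihood). Without HCCLM3, where only 21 and 30 counts were seen, the log2 change was -0.30 and the adjusted p was 0.0442 (edgeR). Calls over all genes also rose without that line, from 2047 to 3971. CLDN3, a barrier claudin, had 1.02, 1.85 and 3.15 CPM after TGF-β1, against 0.531, 1.29 and 2.83 CPM. At 10 to 71 counts per library its log2 change of 0.39 (SE 0.231, adjusted p 0.291, edgeR) could not be told from 0.

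The other members did not pass, and their changes averaged over the 3 lines were small. CLDN1, a barrier claudin also used as an entry factor by hepatitis C virus, differed by -0.12 (SE 0.106). The barrier claudin CLDN7 differed by 0.10 (SE 0.17) and CLDN12, a claudin without the usual PDZ-binding tail, by -0.07 (SE 0.0816). OCLN differed by -0.05 (SE 0.185), with 3.2, 4.38 and 5.78 CPM after TGF-β1 against 2.87, 6.29 and 4.79 CPM in controls. Adjusted p for these 4 genes ran from 0.503 to 0.88 (edgeR quasi-likelihood). For OCLN and CLDN7 the lines did not move together. OCLN differed by 0.15 (-0.38 to 0.70) in HCCLM3, -0.51 (-0.91 to -0.14) in MHCC97H and 0.27 (-0.11 to 0.65) in MHCC97L. CLDN7 had 4.02, 5.97 and 5.29 CPM with TGF-β1 in HCCLM3, MHCC97H and MHCC97L, against 4.89, 5.76 and 3.74 CPM in controls. Its difference in MHCC97L was 0.49 (0.09 to 0.92), the only one of its 3 with a counting interval clear of 0.

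TJP1 (ENSG00000104067.16, chr15:29699367-29968865, minus strand) was the steadiest member, at 143, 124 and 137 CPM after TGF-β1 in HCCLM3, MHCC97H and MHCC97L, against 129, 131 and 149 CPM in controls. All 6 libraries lay between 124 and 149 CPM. The log2 change was -0.02 (SE 0.0739, adjusted p 0.889, edgeR quasi-likelihood).

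**Figure D2:**
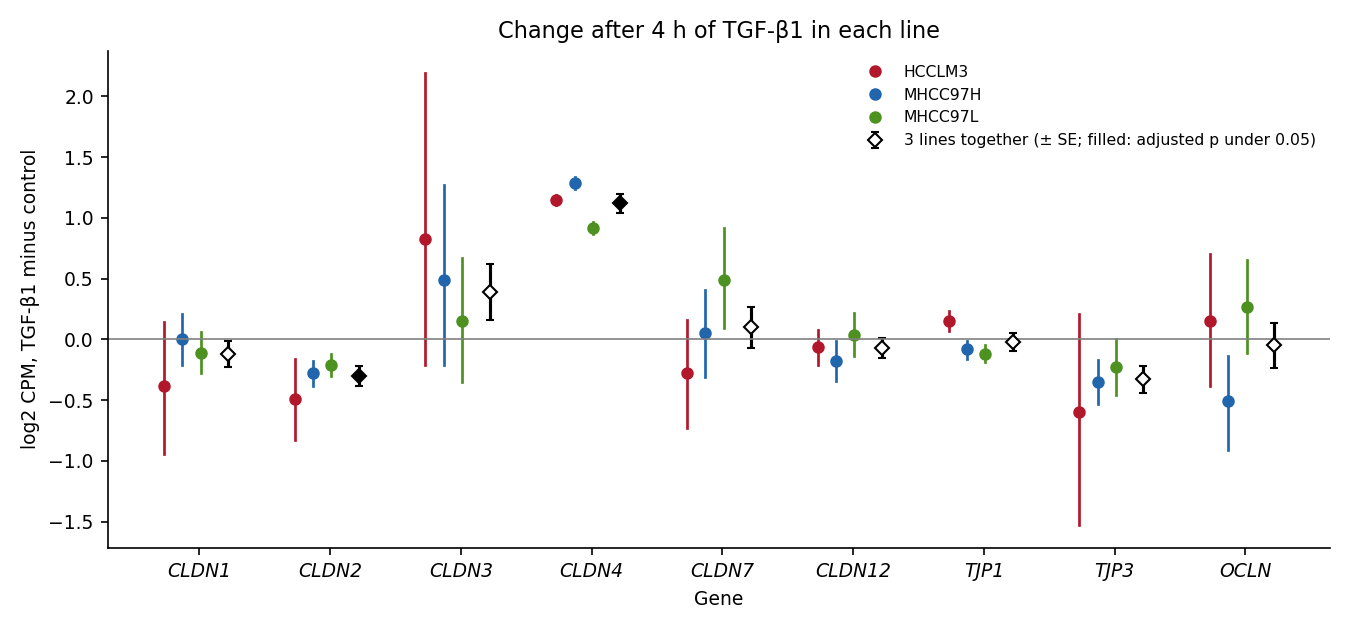
Log2 CPM with TGF-β1 minus control for each gene in each line, with 95% counting intervals (coloured), and the estimate over the 3 lines with its SE (black diamonds, filled where the adjusted p is under 0.05). CLDN4 is 0.92 to 1.29 higher in all lines, CLDN2 is 0.21 to 0.49 lower, and the widest intervals are those of CLDN3 and of TJP3 in HCCLM3.

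Whether HCCLM3 responded differently from the MHCC97 lines was tested as an interaction, with 1 residual degree of freedom. HCCLM3 enters with 1 pair of libraries, so the spread comes from the gap between the 2 MHCC97 responses and the p does not measure how the HCCLM3 response varies. Of the 9 members 0 passed by edgeR's quasi-likelihood test at 0.05 after adjustment, where 1.59% of all genes did, 0.769% higher and 0.818% lower, and 2015 of 14176 genes had an unadjusted p under 0.05. DESeq2, limma-voom and both other scalings also called 0 members. CLDN4 had an interaction of 0.05 (SE 0.148) on the log2 scale. The member nearest to a call was TJP1, at 0.25 (SE 0.117, unadjusted p 0.0427, adjusted p 0.327, edgeR quasi-likelihood).

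The second comparison sets the lines against each other, with both conditions in the fit. HCCLM3 differed from MHCC97L in 7 of 9 members, 2 higher and 5 lower, and from MHCC97H in 6 of 9, 2 higher and 4 lower (adjusted p of 0.05, edgeR quasi-likelihood). The background was 29.8% of all genes against MHCC97L, of which 15.0% higher and 14.8% lower. Against MHCC97H it was 27.2%, of which 13.3% higher and 13.9% lower. The median difference of the members was -0.80 in each comparison, against -0.003 and 0.001 over all genes tested. The 43 other junction genes tested, described below, had medians of -0.02 and -0.10. In HCCLM3, 9 of these were higher and 8 lower than in MHCC97L, and 6 higher and 9 lower than in MHCC97H. The members were chosen with earlier results of these data known, so their share is not a result for junction genes as a set. Both comparisons use the same HCCLM3 libraries, so they are not separate evidence. In bulk RNA, fewer cells with a gene and less RNA per cell cannot be told apart.

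CLDN2 had 6.49 CPM with TGF-β1 and 9.13 CPM in control in HCCLM3, against 64.7 and 78.6 CPM in MHCC97H and 87.4 and 101 CPM in MHCC97L. The groups do not overlap, and the HCCLM3 libraries stand apart by an order of size. The log2 difference was -3.60 (SE 0.108) from MHCC97L, 12.1-fold lower (adjusted p 1.77e-07), and -3.21 (SE 0.108) from MHCC97H, 9.22-fold lower (adjusted p 3.57e-07, both by edgeR's quasi-likelihood test).

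TJP3 (ENSG00000105289.14, chr19:3708109-3750813, plus strand) was low in HCCLM3, at 1.02 and 1.59 CPM with TGF-β1 and in control, against 20.2 and 25.7 CPM in MHCC97H and 13.1 and 15.3 CPM in MHCC97L. It was 17.6-fold lower than in MHCC97H (log2 -4.14, SE 0.166, adjusted p 1.1e-06) and 10.9-fold lower than in MHCC97L (log2 -3.45, SE 0.172, adjusted p 2.86e-06, both edgeR quasi-likelihood). TJP1, the scaffold of the same family, did not pass in any line comparison, with log2 differences of -0.07 (SE 0.0904) from MHCC97L and 0.09 (SE 0.0906) from MHCC97H.

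CLDN1 (ENSG00000163347.5, chr3:190305701-190322475, minus strand) had 2.66 and 3.5 CPM with TGF-β1 and in control in HCCLM3, against 17.2 and 17.2 CPM in MHCC97H and 25.1 and 27.1 CPM in MHCC97L. It was 8.49-fold lower than in MHCC97L (log2 -3.09, SE 0.144) and 5.61-fold lower than in MHCC97H (log2 -2.49, SE 0.147), with adjusted p of 1.99e-06 and 9.39e-06 (edgeR quasi-likelihood). The 3 lines thus kept an order of HCCLM3, MHCC97H and MHCC97L from low to high in both conditions.

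CLDN4 ran the other way. Its mean over the 2 libraries of a line was 678 CPM in HCCLM3, 352 CPM in MHCC97H and 320 CPM in MHCC97L. It was higher in HCCLM3 by 1.04 (SE 0.0986, adjusted p 9.64e-05) than in MHCC97L and by 0.97 (SE 0.0984, adjusted p 0.000163) than in MHCC97H on the log2 scale (edgeR quasi-likelihood). CLDN12 was also higher in HCCLM3, with 37.6 and 39.3 CPM against 26 and 29.4 CPM in MHCC97H and 22.9 and 22.2 CPM in MHCC97L. Its log2 differences were 0.77 (SE 0.1, adjusted p 0.00054) from MHCC97L and 0.48 (SE 0.0992, adjusted p 0.00723) from MHCC97H by the same test. Without the TGF-β1 library of MHCC97H, CLDN12 no longer passed against that line (adjusted p 0.063, edgeR). CDK14 and GTPBP10 overlap CLDN12 on its own strand, and its counts had decimals.

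Low members gave less certain differences. CLDN3 had 1.02 and 0.531 CPM in HCCLM3 with TGF-β1 and in control, against 3.15 and 2.83 CPM in MHCC97L, a log2 difference of -1.94 (SE 0.302, adjusted p 0.00145, edgeR quasi-likelihood). From MHCC97H it differed by -1.01 (SE 0.341, adjusted p 0.0587, edgeR), which limma-voom called (0.0424). OCLN was lower in HCCLM3 by 0.80 (SE 0.237) on the log2 scale than in either line, with adjusted p of 0.0327 against MHCC97L and 0.0352 against MHCC97H (edgeR). DESeq2 called OCLN in neither comparison (adjusted p 0.138 and 0.144), the call against MHCC97L was also lost with limma-voom (0.0555), and single libraries ended both calls, as given under the dependence on processing. Its counts had decimals and it has a pseudogene copy, so reads may have been divided between them. CLDN7 did not pass against MHCC97L (-0.02, SE 0.215) or MHCC97H (-0.40, SE 0.208).

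**Figure D3:**
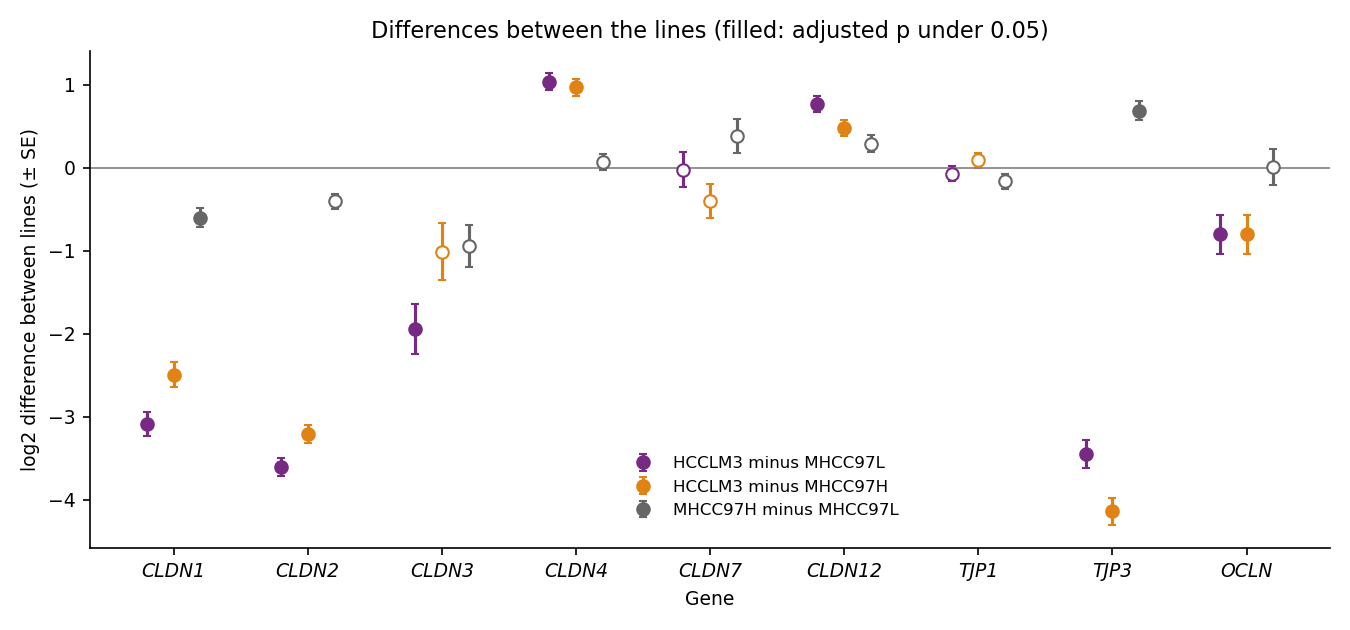
Log2 difference between lines for each gene with its SE, filled where the adjusted p (edgeR quasi-likelihood) is under 0.05. HCCLM3 is below MHCC97L and MHCC97H for CLDN1, CLDN2 and TJP3, at log2 differences between -4.14 and -2.49, and above them by 0.97 and 1.04 for CLDN4, while the MHCC97 lines differ from each other by under 1 for every gene.

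MHCC97H and MHCC97L were much closer to each other. Of 9 members, TJP3 was higher in MHCC97H, by 0.69 (SE 0.118, adjusted p 0.0217, edgeR quasi-likelihood), and CLDN1 was lower, by a log2 difference of -0.60 (SE 0.116, adjusted p 0.0353). Over all genes 2.45% passed, 1.37% higher and 1.09% lower. Both calls were lost with DESeq2 (adjusted p 0.084 for TJP3 and 0.122 for CLDN1) and when any 1 MHCC97 library was left out. Without either HCCLM3 library, 4 members passed.

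The lines were also compared in each condition alone, with 1 library a line and no test. In the TGF-β1 libraries HCCLM3 differed from MHCC97H by -3.30 for CLDN2, -2.65 for CLDN1 and -4.19 for TJP3 on the log2 scale, and in the controls by -3.09, -2.27 and -3.93. For CLDN4 the HCCLM3 excess over MHCC97H was 0.90 with TGF-β1 and 1.04 in controls. Members with low counts were less alike between conditions. OCLN differed between HCCLM3 and MHCC97H by -0.44 (counting interval -0.92 to 0.01) with TGF-β1 and by -1.11 (-1.62 to -0.67) in controls, and between MHCC97H and MHCC97L by -0.39 and 0.39. CLDN7 differed between HCCLM3 and MHCC97L by -0.39 with TGF-β1 and by 0.38 in controls.

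Cell identity markers moved with the lines as well. Summed over 8 hepatocyte and hepatoma markers, the level ran from 20.9 to 253 CPM in TGF-β1 libraries and from 22 to 187 CPM in controls, and both lows were HCCLM3. ALB, which encodes albumin, had 1.26 and 1.43 CPM with TGF-β1 and in control in HCCLM3, against 22.5 and 22.9 CPM in MHCC97H and 12.4 and 8.87 CPM in MHCC97L, and TTR was under 1 CPM everywhere. The 5 markers of simple epithelium summed to 7151 to 9668 CPM with TGF-β1 and 6565 to 7993 CPM in controls, almost all from keratins, while EPCAM was under 1 CPM in all libraries and the E-cadherin gene CDH1 lay between 7.51 and 11.3 CPM. Of the leukocyte markers PTPRC, CD3E and CD14 were under 1 CPM in every library and CD68 had 109 to 246 CPM with TGF-β1 and 125 to 217 CPM in controls. Of 7 markers of stellate cells and fibroblasts, which summed to 19.2 to 38.6 CPM with TGF-β1 and 10.6 to 34.5 CPM in controls, 3 reached 5 CPM in a library and COL1A2, PDGFRB and ACTA2 were under 1 CPM in every one. COL1A1 had 5.57, 5.67 and 7.2 CPM with TGF-β1 in HCCLM3, MHCC97H and MHCC97L, against 0.425, 0.476 and 0.305 CPM in controls. COL3A1 had 11.7 CPM with TGF-β1 and 14.4 CPM in control in HCCLM3 and was under 1 CPM in the other lines, and LUM ran from 9.27 to 17.7 CPM over all libraries. The 4 endothelial markers summed to 9.59 to 35.1 CPM with TGF-β1 and 13.2 to 40.8 CPM in controls, with CDH5 under 1 CPM throughout. PECAM1 had 5.91 and 8.66 CPM with TGF-β1 and in control in HCCLM3, against 22.5 and 31 CPM in MHCC97H and 24 and 27.6 CPM in MHCC97L, and KDR reached 10.5 CPM in MHCC97H with TGF-β1. The part of these markers in the differences of the junction genes was not tested.

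The balance among claudins was measured as each gene's share of the CPM per kb summed over the 24 claudins in the files. CLDN4 made up 88.8%, 70.7% and 63.5% of it after TGF-β1 in HCCLM3, MHCC97H and MHCC97L, against 79.6%, 49.6% and 46.7% in controls. CLDN2 held 0.85%, 12.6% and 18.3% after TGF-β1, against 2.38%, 26.3% and 29.4%. In both MHCC97 lines the pore-forming CLDN2 thus took a smaller share beside CLDN4 with the ligand, and in HCCLM3 it was minor in both conditions. The sum over claudins was 224, 150 and 140 CPM per kb after TGF-β1, against 113, 87.7 and 101 CPM per kb. CLDN2 itself had 1.9, 19 and 25.6 CPM per kb after TGF-β1, against 2.68, 23.1 and 29.6. Its smaller share thus comes more from the larger sum than from its own lower level. Shares have 1 library per bar and no test.

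**Figure D4:**
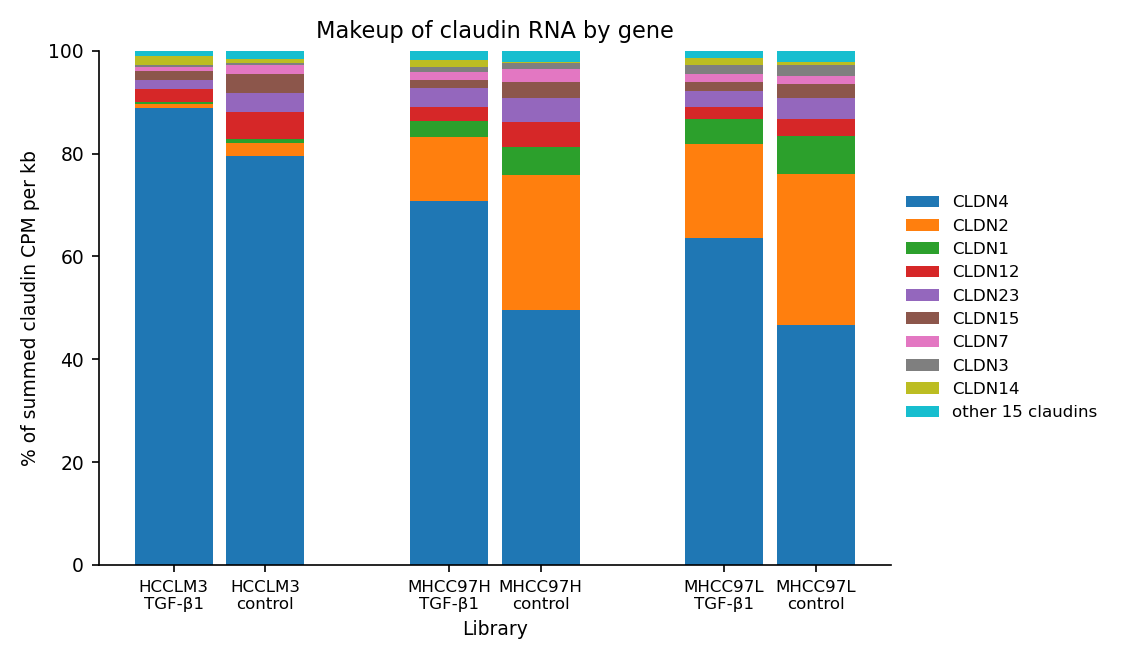
Share of each claudin in the CPM per kb summed over 24 claudins, in 6 libraries grouped by line, TGF-β1 beside control. CLDN4 fills 63.5% to 88.8% of the bar after TGF-β1 and 46.7% to 79.6% in controls, and CLDN2 is the next largest block in the MHCC97 lines.

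Other genes of the junction were taken from a list of 62 in 4 groups, of which 43 were tested. After TGF-β1, 4 rose and 3 fell, where 14.4% of all genes passed, 7.79% higher and 6.65% lower, so this is near the background. Their median log2 change was -0.02. Of 18 other claudins 6 were tested and 1 rose. CLDN14, a claudin that limits cation passage and is known from kidney and inner ear, had 10.7, 5.33 and 5.33 CPM after TGF-β1 in HCCLM3, MHCC97H and MHCC97L, against 2.44, 0.524 and 1.31 CPM in controls. The treated libraries all lay above the controls, and the log2 change was 2.34 (SE 0.225), 5.08-fold (adjusted p 0.000434, edgeR quasi-likelihood). The others named for their mean CPM, a value not scaled by length, did not pass: CLDN23 changed by 0.19 (SE 0.128) and CLDN15 by -0.15 (SE 0.108).

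Among 13 other membrane proteins 9 were tested and 1 passed. ESAM, an adhesion molecule of endothelial junctions and platelets, had 123, 81.8 and 105 CPM after TGF-β1, against 108, 61.8 and 91.5 CPM, a log2 change of 0.26 (SE 0.0719, adjusted p 0.044, edgeR quasi-likelihood) that 8 of 10 alternatives did not call. The junctional adhesion molecule gene F11R changed by 0.11 (SE 0.0734) and did not pass. Of 16 other plaque proteins 14 were tested and MAGI3, a membrane-associated scaffold, fell to 36.2, 35.3 and 33.3 CPM after TGF-β1, against 44.4, 52 and 49.9 CPM in controls (log2 -0.48, SE 0.083, adjusted p 0.00751, edgeR). Without MHCC97L its adjusted p was 0.11. CGN, which encodes cingulin, changed by -0.09 (SE 0.0718) and SYMPK by 0.02 (SE 0.0743), with a sign that turned under other scalings. Neither passed.

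Of 15 polarity genes and junction regulators 14 were tested, 2 rose and 2 fell, beside the 7.79% and 6.65% of all genes. ARHGEF18, which encodes p114RhoGEF, an activator of RhoA at junctions, had 147, 140 and 124 CPM after TGF-β1, against 71.2, 54.1 and 53.1 CPM in HCCLM3, MHCC97H and MHCC97L. No libraries overlap, and the log2 change was 1.21 (SE 0.0782, adjusted p 5.97e-05, edgeR quasi-likelihood), 2.32-fold. PARD6B, a subunit of the PAR polarity complex, fell to 23.7, 27.8 and 27.4 CPM, against 44.9, 45.9 and 44.2 CPM in controls (log2 -0.78, SE 0.081, adjusted p 0.000636, edgeR). MICALL2, a partner of RAB13 in junction assembly, rose by 0.48 (SE 0.0822, adjusted p 0.00745, edgeR). ARHGEF11 fell by 0.24 on the log2 scale (SE 0.0661, adjusted p 0.0463, edgeR), a call lost without MHCC97L (0.485) or MHCC97H (0.0729), with limma-voom (0.053) and without the count filter (0.062). VAPA, named for its mean CPM, changed by 0.08 (SE 0.0612) and did not pass.

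**Figure D5:**
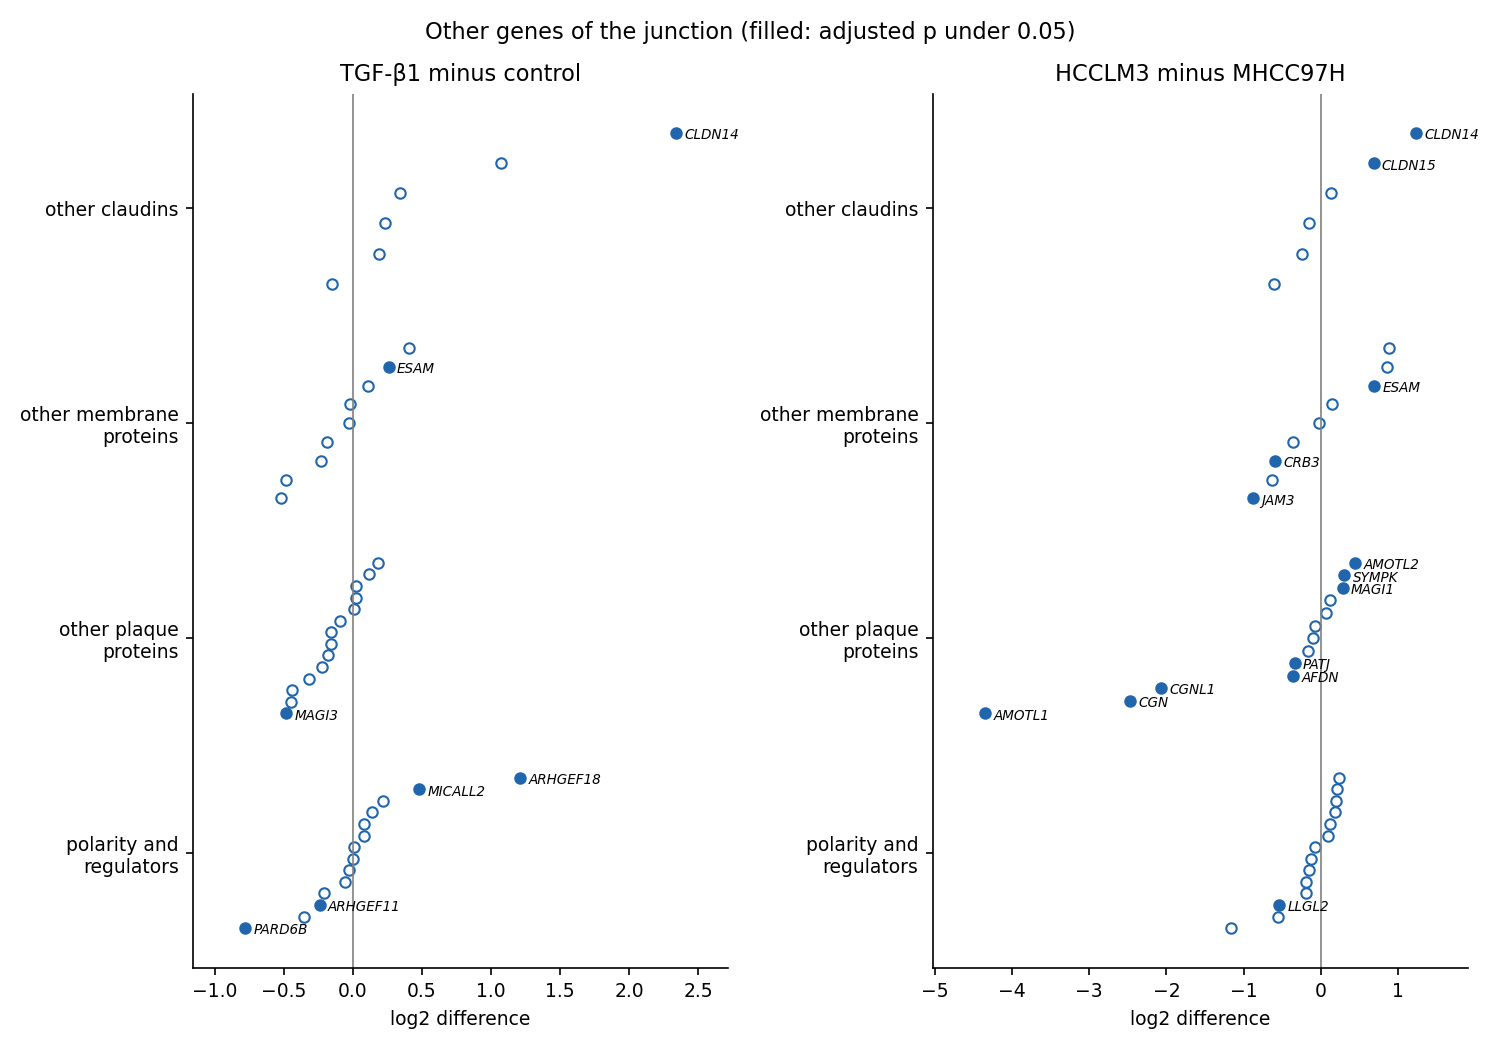
Log2 differences of the tested genes of 4 junction groups, TGF-β1 minus control on the left and HCCLM3 minus MHCC97H on the right, filled and named where the adjusted p (edgeR quasi-likelihood) is under 0.05. CLDN14 and ARHGEF18 lie farthest right on the left panel, and AMOTL1, CGN and CGNL1 farthest left on the right panel, where MPDZ, at 0 counts in HCCLM3, is not drawn.

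Between lines, 3 of 14 tested plaque genes were higher and 5 lower in HCCLM3 than in MHCC97L, beside 29.8% of all genes. Against MHCC97H, 3 were higher and 6 lower, beside 27.2% (adjusted p of 0.05, edgeR quasi-likelihood). MAGI1, AMOTL2 and SYMPK were the higher ones in both, by 0.28 to 0.52 on the log2 scale. Most of the 12 alternatives did not call MAGI1 against MHCC97H (lost in 10) or AMOTL2 against MHCC97L (lost in 9). The remaining calls of these genes were each lost in 2 to 5 alternatives. Among other claudins, CLDN14 was higher by 0.98 and 1.23 and CLDN15 by 0.61 and 0.68 than in MHCC97L and MHCC97H. Against MHCC97L, DESeq2 called neither (adjusted p 0.101 and 0.0719), and 2 and 3 of 12 alternatives ended these calls. Against MHCC97H both held in all 12. Some plaque genes were far lower in HCCLM3, and the genes of the next sentences were chosen among these after their values were seen. CGN had 32.3 and 32.9 CPM with TGF-β1 and in control in HCCLM3, against 180 and 180 CPM in MHCC97H and 150 and 175 CPM in MHCC97L (log2 -2.47 and -2.31, SE 0.0928 and 0.0925, adjusted p 7.7e-07 and 9.32e-07, edgeR quasi-likelihood). CGNL1, or paracingulin, was lower by -2.07 (SE 0.212) and -1.21 (SE 0.23) on the same scale, the difference from MHCC97L being lost without its control library (adjusted p 0.0666, edgeR). AMOTL1, an angiomotin-family scaffold, had 2 and 4 counts in HCCLM3 and was lower by -4.35 (SE 0.398) and -4.22 (SE 0.404).

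MPDZ, or MUPP1, a scaffold of many PDZ domains that binds claudins, had 0 counts in both HCCLM3 libraries, against 92 and 119 counts with TGF-β1 and in control in MHCC97H and 138 and 183 counts in MHCC97L. Set against 3 counts over both HCCLM3 libraries, it was at least 62.7-fold lower than in MHCC97H and at least 92.9-fold lower than in MHCC97L. YBX3, another gene of the plaque list and one that many cell types express, had 0 or 1 count in all 6 libraries, so a count of 0 in these files need not mean that a gene is silent.

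The 15 transcription factors known to act on junction genes included 11 that were tested, of which 3 rose with TGF-β1, beside 7.79% of all genes. The claudin and E-cadherin repressor genes SNAI2 and SNAI1 both rose. Other repressor genes of the list did not: ZEB1 changed by 0.14 (SE 0.131, adjusted p 0.525) and ZEB2 by -0.01 (SE 0.11, adjusted p 0.969, both edgeR quasi-likelihood). TWIST1 had 0 counts in every library. SNAI2 had 38.5, 27 and 39.2 CPM after TGF-β1 in HCCLM3, MHCC97H and MHCC97L, against 16.3, 9.34 and 16.8 CPM in controls, a log2 change of 1.32 (SE 0.0942, adjusted p 0.000104, edgeR quasi-likelihood). SNAI1 changed by 0.69 (SE 0.108, adjusted p 0.0049, edgeR). The hepatocyte factor gene HNF4A rose by 0.97 (SE 0.0707, adjusted p 0.000114) to 157, 208 and 188 CPM, against 79, 97.9 and 105 CPM in controls (edgeR).

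ELF3, an epithelial factor, had 109 CPM with TGF-β1 and 200 CPM in control in HCCLM3, 322 and 319 CPM in MHCC97H, and 297 and 312 CPM in MHCC97L. Its log2 change over the 3 lines was -0.31 (SE 0.224, adjusted p 0.453, edgeR quasi-likelihood) and did not pass. The interaction was -0.86 (SE 0.114, adjusted p 9.78e-05, edgeR quasi-likelihood) and was called under all 4 alternatives of that test, which all rest on the same single pair of HCCLM3 libraries. The repressor gene ZEB1 had the opposite sign, at 0.60 (SE 0.153, adjusted p 0.047, edgeR), a call that DESeq2 (adjusted p of 1), limma-voom (0.109) and library totals (0.114) did not make. CLDN1, CLDN2, CLDN4 and TJP3 showed no interaction past the threshold in the same fit. In the line comparisons, 1 of the 11 tested factors was higher and 4 were lower in HCCLM3 than in MHCC97L, beside 29.8% of all genes. Against MHCC97H, 3 were higher and 4 lower, beside 27.2%. Between lines, ZEB2, another repressor gene, was higher in HCCLM3 by 0.94 (SE 0.131) than in MHCC97H and by 1.24 (SE 0.134) than in MHCC97L, with 13.8 and 13.5 CPM against 7.13 and 7.15 CPM and 5.64 and 5.96 CPM. The epithelial factor gene GRHL1 was lower by -2.08 (SE 0.336) and -2.19 (SE 0.331), and the intestinal factor gene CDX2 by -1.56 (SE 0.175) and -1.34 (SE 0.178). GRHL1 was low throughout, at 10 and 9 counts with TGF-β1 and in control in HCCLM3 and 1.93 to 2.44 CPM in the MHCC97 lines. Adjusted p for these 6 differences ran from 0.000201 to 0.00201 (edgeR quasi-likelihood), and these 3 genes, like ZEB1, were chosen after their values were seen. HNF4A differed by -0.36 from MHCC97H and -0.34 from MHCC97L (SE 0.0861 each, adjusted p 0.014 and 0.0174, edgeR). Each of its calls was lost in 2 of 12 alternatives. The repressor genes SNAI1 and SNAI2 passed only against MHCC97H, higher in HCCLM3 by 0.55 and 0.64, and ZEB1 passed in neither line comparison.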

How the data were processed

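For each library the authors deposited a table of expected counts by Ensembl ID. Its unit was read from the values, of which 63.6% to 64.6% were whole. Programs listed without roles in the submitters' processing notes are Cufflinks 2.2.1, TopHat2 2.1.1 and Cuffdiff 1.3.0, with the build hg38. The counting tool and its strand setting are not given in the sources used here. Library totals ran from 18485041 to 23242862 expected counts, and 3 counts, the limit that a count of 0 allows, are 0.129 to 0.162 CPM. Symbols came from a reference list of gene names, and from GENCODE 29 where that list had none. Coordinates and exon lengths came from GENCODE 29, and promoters from RefSeq (GRCh38.p14), where all 9 members matched by symbol.

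Counts were rounded and tested with edgeR 4.0.16 in R 4.3.3 (filterByExpr, TMM factors from 0.9715 to 1.029, robust quasi-likelihood F test, terms for line and treatment, 2 residual degrees of freedom, Benjamini-Hochberg adjustment at 0.05 over 14176 genes). The interaction was a separate fit. Within a line, log2 differences used a prior count of 2, and 95% exact conditional binomial intervals cover counting error only, since no molecular identifiers are described. Alternatives used DESeq2 1.42.0, limma 3.58.1, other scalings and filters, and left-out libraries. Scripts were tested on simulated data, in Python 3.11.15 and R. The labels pair the libraries of a line, and their deviations from the condition means correlated at 0.728, 0.456 and 0.587 in HCCLM3, MHCC97H and MHCC97L.

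The members and lists were chosen with earlier results of these data known. From the wider list the text names, per group, up to 4 genes in each direction with the smallest p past the TGF-β1 threshold and the 2 highest in mean CPM. The result of 1 gene that this rule names is not reported here.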

Additional observations from a re-analysis of the deposited data

Results flagged for a closer look

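TJP1 is listed because its difference between TGF-β1 and control pointed up in HCCLM3 and down in both MHCC97 lines, each with a counting interval clear of 0. The log2 difference was 0.15 in HCCLM3, -0.08 in MHCC97H and -0.12 in MHCC97L. The difference in response was tested as an interaction of 0.25 (SE 0.117) and did not pass (adjusted p 0.327, edgeR quasi-likelihood, Benjamini-Hochberg). All 3 values are small beside the change of CLDN4 in the same libraries.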

How the results depend on the processing

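Depth limits CLDN3, OCLN and, in HCCLM3, TJP3 and CLDN1, where libraries held 10 to 132 counts. With 1 library per line and condition, culture-to-culture variation was not measured. The alternative length for claudin shares was chosen after seeing the data.

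For TGF-β1, 2047 genes passed, and 611 to 3971 when a line was left out (611 without MHCC97L, 981 without MHCC97H, 3971 without HCCLM3). The share of calls that were higher was 53.9%, against 62.3% with DESeq2, 44.2% with upper quartiles and 37.2% with library totals, which move the median log2 change of all genes to -0.053. Of the 2 members called, 1 was called with DESeq2, limma-voom or no count filter, and 1 to 3 with a line left out. Without the replicate block, that is with the pairing by line ignored, 10 genes and 0 members passed; the log2 change of CLDN4 was 1.13 (adjusted p 0.358, edgeR). CLDN4 was called under the other 9 alternatives.

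CLDN1, CLDN2, CLDN4 and TJP3 kept their calls in both HCCLM3 comparisons under all 12 alternatives. OCLN lost its call against MHCC97L without the HCCLM3 control (adjusted p 0.128) or the MHCC97L TGF-β1 library (0.328), and against MHCC97H without either line's control (0.127 and 0.3, edgeR). Genes passing between HCCLM3 and MHCC97L ranged from 2060 to 4643 with a library left out. Between MHCC97H and MHCC97L, 96 to 1486 genes and 0 to 4 members passed with a library left out, and of members 0 with DESeq2, 1 with library totals and 1 with the non-robust test. For the interaction 225 genes passed, 21 with DESeq2 and 136 with library totals.

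Values near 0 changed sign without passing. With a line left out, TGF-β1 changes ran from -0.10 to 0.25 for CLDN7, from -0.11 to 0.03 for TJP1 (0.01 without MHCC97H), from -0.23 to 0.23 for OCLN and from -0.06 to 0.08 for SYMPK, which was also -0.01 with upper quartiles and -0.03 with library totals. With a library left out, MHCC97H minus MHCC97L ran from -0.08 to 0.22 for CLDN4 and from -0.37 to 0.37 for OCLN (-0.01 with limma-voom). HCCLM3 minus MHCC97L ran from -0.30 to 0.29 for CLDN7 and from -0.19 to 0.07 for TJP1, and HCCLM3 minus MHCC97H from -0.03 to 0.23 for TJP1. The CLDN12 interaction was -0.02 with library totals. With the longest coding transcript as length, the CLDN12 share of claudin signal was 4.07%, 4.22% and 4.0% with TGF-β1 in HCCLM3, MHCC97H and MHCC97L, against 2.49%, 2.56% and 2.42% with exon union length, and 8.3%, 8.1% and 5.41% in controls, against 5.18%, 4.97% and 3.27%. The causes of these shifts were not tested.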

Other observations

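For the 6 members with a mean of 5 CPM or more, the genes whose log2 CPM ran most alike over the 6 libraries were named among 10407 genes, as a description with no test. CLDN4 was most like NAV1 (Pearson's r 0.998), LTBP4 (0.997) and RIPOR1 (0.993). CLDN2 was most like SORD (0.998), ANXA4 (0.998) and HGD (0.997), and CLDN1 like CLN6, EDEM1 and PRRT3 (all 0.999). TJP3 was most like SLC18B1, RALGPS2 and PKDCC (all 0.998). CLDN12 was most like ARMCX1 (0.997), ANKRD29 (0.993) and HPGD (0.993). TJP1 had the weakest likeness, with HNRNPH3 at 0.981, CPSF6 at 0.963 and OXTR at 0.953. The 6 points are 3 lines seen in 2 conditions, so they share line and treatment, and nothing on shared function or control follows from the likeness.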
